A study of Rattus norvegicus with 8 samples.

Results

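The Hippo pathway was read out in cells cut from regenerating rat livers by laser microdissection (LMD) through 10 genes, namely Vgll4, Yap1, Wwtr1, Tead1, Lats1, Lats2, Amotl2, Ctgf, Cyr61 and Ankrd1. They were chosen by gene name, with earlier results of these arrays known, and together they had 15 of the 45598 distinct probes. Because of that choice their values are a description, no p-value is given for them, and nothing is read from whether a probe was called. F344 rats received retrorsine (Ret), which blocks division of hepatocytes, followed by partial hepatectomy (PH), and in such livers small hepatocyte-like progenitor cells (SHPCs) grow as clusters. The arrays measured 3 samples of SHPC clusters from recipient livers transplanted with bone marrow-derived mesenchymal cells (BM-MCs), 3 samples of SHPC clusters from recipient control livers without BM-MCs, and 2 samples of mature hepatocytes (MHs) from recipient control livers. Per the study's methods all recipients were female, all had Ret/PH and all were examined at the same time after transplantation. The labels give the strain of every sample as DPPIV-positive and the methods give the recipients as DPPIV-negative. Samples could not be assigned to animals from either source, and each p-value below therefore covers only sample-to-sample spread, part of which may be technical.

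The Hippo pathway limits organ size. Its kinases Lats1 and Lats2 phosphorylate the coactivators Yap1 and Wwtr1 (also called TAZ) and keep them out of the nucleus, whereas unphosphorylated Yap1 and Wwtr1 join TEAD factors such as Tead1 and switch on growth genes. Vgll4 binds the same TEAD factors and competes with Yap1. Ctgf, Cyr61, Ankrd1 and Amotl2 are widely used target genes of Yap1 and TEAD, and Amotl2 in turn holds Yap1 back. In the liver the pathway restrains hepatocyte growth, and activity of Yap1 is known to give hepatocytes progenitor features.

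All 8 hepatocyte markers were well above background on all 7 arrays with complete marks, in MHs and SHPCs alike. Alb lay between 6.83 and 7.22 in the 8 samples on the scale used throughout, log2 of a probe's signal minus the 75th percentile of the log2 signals of the same array. A value of 0 is therefore a signal equal to that percentile. The markers did not set MHs above control SHPCs: 7 of 8 lay lower in MHs, 0 of 8 passed the adjusted threshold by limma, and 2 had an unadjusted p under 0.05 (1 by the test named in the study's methods). Over all probes these shares were 1.13%, 19.2% and 17.5%. The 2 genes were the lipoprotein gene Apoa1 (5.85 and 5.77 in MHs, 6.44 to 6.72 in control SHPCs) and the urea cycle gene Cps1 (0.065 and 0.40 in MHs, 0.66 to 1.77 in control SHPCs), neither of which overlapped between the groups, as was so for 18.7% of all probes in that direction. The arrays carried no sequence-read depth, and their number limits the precision. The 8 arrays lay on 1 slide in 2 sets of 4. The MHs and control SHPCs 1 and 2 were in the first set, and control SHPC 3 and the 3 BM-MC samples were in the second, so that all but 1 control shared no set with the BM-MC samples. Background marks were incomplete for control SHPC 2. The other 7 arrays served as the filter, and the 23065 probes that passed background there at least 3 times were tested. Of the 15 probes of the pathway 12 were tested, and they covered 9 of the 10 genes. Ankrd1, a target gene, was well above background on 1 of 7 arrays only (MH 2). The second probe of Tead1 and the third of Lats1 were well above background on 0 of 7.

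The sequences of a few probes show what the arrays measured. Probe 1 of Vgll4, at chr4:150995759-150995818 on the minus strand of rn4, lies in coding sequence, and the capitals mark codons of the second Tondu domain, with which the protein grips TEAD factors. Its signal thus came from the part of the transcript that encodes TEAD binding. Yap1 had a probe over the second WW domain (probe 1, chr8:4806939-4806998, minus strand, capitals), which some Yap1 isoforms lack, and a probe just before the first WW domain (probe 2, chr8:4846155-4846214, minus strand).
Vgll4 probe 1: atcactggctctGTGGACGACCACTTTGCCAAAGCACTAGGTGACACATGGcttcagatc
Yap1 probe 1: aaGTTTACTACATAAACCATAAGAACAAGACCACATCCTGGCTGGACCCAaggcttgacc
Yap1 probe 2: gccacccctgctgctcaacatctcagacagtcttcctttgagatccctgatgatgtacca
Probe 2 of Vgll4 lies further along the gene at chr4:150994201-150994260. It starts at base 3372 of its transcript in the array's annotation, against 1037 for probe 1.

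The promoters are shown because TEAD factors bind the letters GGAATG, written CATTCC on the other strand. RefSeq promoters of the GRCr8 assembly, which is not the build of the probe coordinates, were given for 7 of the 10 genes in 9 entries, and Tead1, Lats2 and Ankrd1 had none. Of all 33469 promoters, 12.1% held the motif on either strand in the 250 bases before the start, and 0.0807% held it at least 3 times. The promoter of Ctgf (Ccn2 in RefSeq, chr1:22624615-22624864, minus strand) held it 3 times, starting 166, 101 and 92 bases before the start. That of Cyr61 (Ccn1 in RefSeq, chr2:237225690-237225939, minus strand) held it 1 time, on the other strand, 113 bases before the start. Capitals mark the motif.
Ctgf promoter: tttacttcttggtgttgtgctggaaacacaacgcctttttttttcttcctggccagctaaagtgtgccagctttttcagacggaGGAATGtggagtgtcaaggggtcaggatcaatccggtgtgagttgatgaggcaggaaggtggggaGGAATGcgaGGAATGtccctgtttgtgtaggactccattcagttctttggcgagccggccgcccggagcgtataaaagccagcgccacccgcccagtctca
Cyr61 promoter: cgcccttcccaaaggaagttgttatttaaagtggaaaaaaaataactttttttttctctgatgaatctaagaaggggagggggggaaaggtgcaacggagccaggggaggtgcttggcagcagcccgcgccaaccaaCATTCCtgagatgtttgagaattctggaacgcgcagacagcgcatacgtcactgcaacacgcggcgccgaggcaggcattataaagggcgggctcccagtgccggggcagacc
Vgll4 had 3 promoter entries, of which 1 held the motif, at 208 and 16 bases before the start. The promoters of Yap1 and Amotl2 held it 1 time each, 116 and 76 bases before the start, and those of Lats1 and Wwtr1 held none in this window. The stretch around the motif nearest the start is given for Vgll4 (chr4:149710215-149710242, minus strand), Yap1 (chr8:13451536-13451565, minus strand) and Amotl2 (chr8:112182538-112182567, plus strand). These matches are a description of the letters only.
Vgll4 motif: cgggctgcgcctCATTCCagggattcct
Yap1 motif: agggagtctgcaGGAATGtaacgacgcgca
Amotl2 motif: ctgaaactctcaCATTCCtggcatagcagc

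Vgll4, the competitor of Yap1 for TEAD factors, was about 2-fold higher in SHPCs of livers with BM-MCs than in control SHPCs, by both of its probes, while MHs lay at the level of control SHPCs. With BM-MCs probe 1 read -0.81, -1.0 and -0.94 in samples 1 to 3. In control SHPCs it read -2.07, -1.92 and -1.91, and in MHs -1.70 and -2.08. Every BM-MC sample was thus above every other sample, and the ranges of MHs and control SHPCs overlapped. In the deposited, unscaled signal the same probe lay between 709.6 and 993.3 with BM-MCs and between 333.7 and 460.4 on the other 5 arrays. The group means were -0.92 ± 0.10 (SD, n = 3) with BM-MCs, -1.97 ± 0.090 (SD, n = 3) in controls and -1.89 ± 0.26 (SD, n = 2) in MHs. The log2 difference between SHPCs with and without BM-MCs was 1.05 (SE 0.11), or 2.07-fold.

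Probe 2 of Vgll4 gave the same picture. It read -1.99, -1.92 and -1.81 with BM-MCs, -2.92, -2.99 and -2.93 in control SHPCs and -3.03 and -3.06 in MHs. The log2 difference between SHPCs with and without BM-MCs was 1.04 (SE 0.10), or 2.05-fold. Both MHs were below the 3 controls on this probe, but by a log2 difference of only -0.10 (SE 0.11). Over the 8 arrays the probes correlated at a Pearson r of 0.956. They read the same samples, so this describes their likeness on these arrays and adds no sample.

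The gap in Vgll4 between the SHPC groups was about as large with any 1 sample left out and within the second set of arrays. With each of the 6 SHPC samples left out in turn the log2 difference stayed between 0.99 and 1.09 for probe 1 and between 0.99 and 1.08 for probe 2. Within the second set of arrays, where the 3 BM-MC samples lay beside control SHPC 3 alone, it was 0.99 for probe 1 and 1.02 for probe 2. Over all 20 alternatives, the lowest values were 0.86 for probe 1, with each array scaled to its median, and 0.77 for probe 2, with background corrected by normexp and quantile normalization on 7 arrays. Scaling to the median also moved the median of all probes in this comparison by -0.19.

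**Figure D1:**
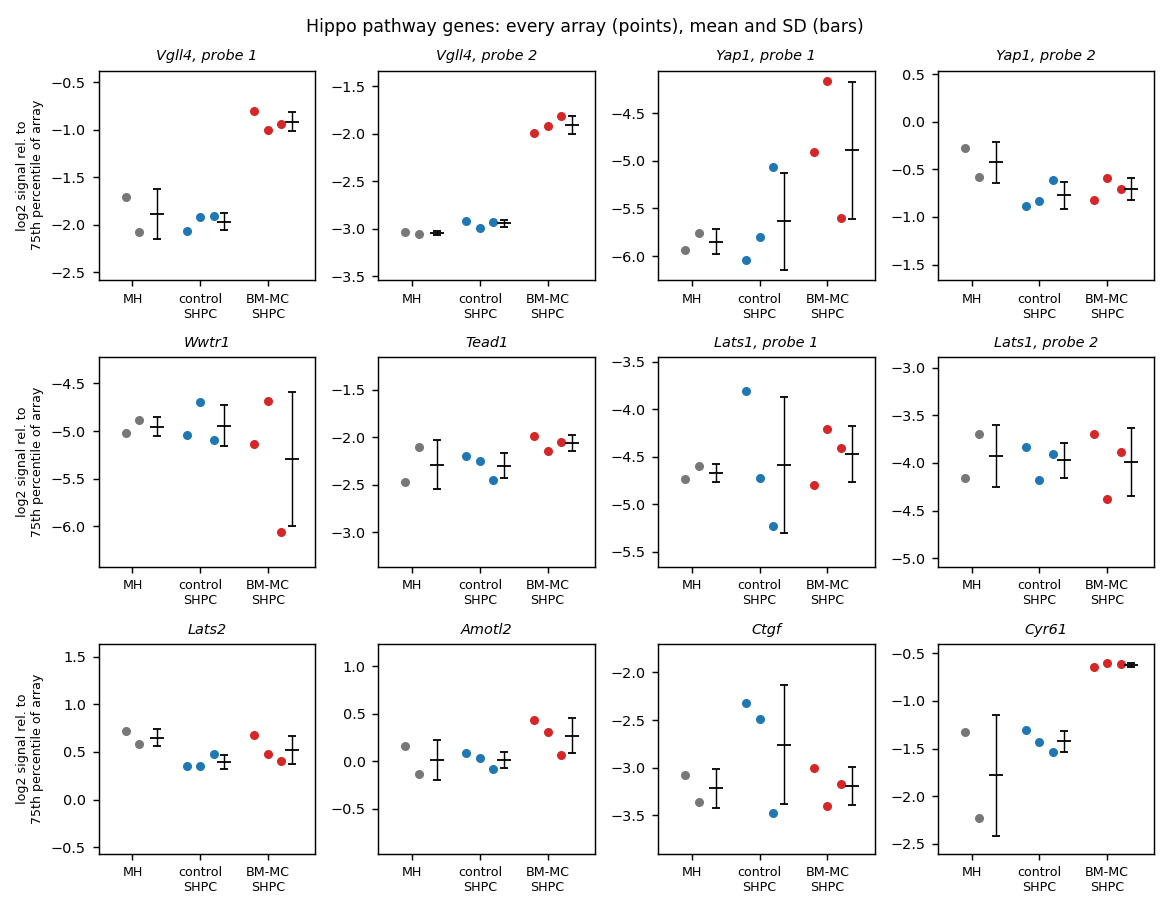
Signal of the 12 tested probes of the pathway in each of the 8 arrays, as log2 signal minus the 75th percentile of the array. Points are samples of MHs (grey), control SHPCs (blue) and SHPCs with BM-MCs (red), and bars give the mean and SD of each group; every panel spans at least 2.2 log2 units. Both Vgll4 probes and Cyr61 lie higher in all 3 BM-MC samples than in the other 5 samples, while Ctgf does not.

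The coactivators showed no such separation. Yap1 probe 2 read -0.82, -0.59 and -0.71 with BM-MCs, -0.88, -0.83 and -0.61 in control SHPCs and -0.27 and -0.58 in MHs. The SHPC groups overlapped, with a log2 difference of 0.066 (SE 0.13) that was -0.13 with scaling to the median. Both MHs were above all 6 SHPC samples, by 0.35 (SE 0.15) over control SHPCs and 0.28 (SE 0.15) over SHPCs with BM-MCs. Without MH 1 the log2 difference was 0.19 for MHs against control SHPCs and -0.13 for SHPCs with BM-MCs against MHs. Yap1 probe 1, over the second WW domain, was dim. It read -4.91, -4.16 and -5.60 with BM-MCs, -6.04, -5.80 and -5.06 in control SHPCs and -5.94 and -5.76 in MHs. It was well above background in 1 of the 2 controls with marks, and its log2 difference of 0.74 (SE 0.42) between SHPCs with and without BM-MCs was 0.17 within the second set of arrays. Wwtr1, the other coactivator, was likewise dim, at -5.14, -4.69 and -6.06 with BM-MCs and between -5.09 and -4.70 in control SHPCs. Sample 3 with BM-MCs was not well above background, and without it the log2 difference of -0.35 (SE 0.35) was 0.030.

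Tead1, the TEAD factor among the 10 genes, was slightly higher with BM-MCs. It read -1.98, -2.15 and -2.06 there, against -2.20, -2.25 and -2.45 in control SHPCs and -2.47 and -2.11 in MHs. The SHPC groups did not overlap but lay close together, with a log2 difference of 0.24 (SE 0.12) that shrank to 0.044 with scaling to the median. Within the second set of arrays it was 0.39. The MHs reached across both SHPC groups.

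The kinases that restrain Yap1 differed little. Lats2 read 0.68, 0.48 and 0.40 with BM-MCs, 0.35, 0.35 and 0.48 in control SHPCs and 0.72 and 0.59 in MHs. Its SHPC groups overlapped (log2 difference 0.13, SE 0.12, and -0.066 with scaling to the median), and both MHs were above all controls, by 0.26 (SE 0.13). Lats1 probe 1 read -4.80, -4.21 and -4.41 with BM-MCs and spread from -5.23 to -3.81 in control SHPCs, with a log2 difference of 0.11 (SE 0.37). That value rested on the controls chosen: it was 0.75 within the second set of arrays and -0.20 without control SHPC 3. Lats1 probe 2 overlapped in all groups and differed by -0.014 (SE 0.21) between the SHPC groups.

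Cyr61, a target gene of Yap1 and TEAD that encodes a secreted matrix protein, was, like Vgll4, highest in the 3 samples with BM-MCs. It read -0.64, -0.60 and -0.61 with BM-MCs, -1.31, -1.43 and -1.54 in control SHPCs and -1.33 and -2.23 in MHs. Every BM-MC sample was above every other sample, and MHs and control SHPCs overlapped. The means were -0.62 ± 0.023 (SD, n = 3), -1.42 ± 0.11 (SD, n = 3) and -1.78 ± 0.64 (SD, n = 2), and the log2 difference between SHPCs with and without BM-MCs was 0.81 (SE 0.11), or 1.75-fold. It was 0.92 within the second set and lay between 0.61 and 0.92 over the 20 alternatives. The probe was spotted 10 times on each array, and the SD over these spots was between 0.046 and 0.11 in the 8 samples. The MHs were 0.90 apart on this probe, and the log2 difference from SHPCs with BM-MCs, 1.16 (SE 0.24), was 0.71 without MH 2 and 1.61 without MH 1.

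Ctgf, a secreted relative of Cyr61, read -3.0, -3.41 and -3.18 with BM-MCs, -2.32, -2.48 and -3.48 in control SHPCs and -3.08 and -3.36 in MHs. Control SHPCs 1 and 2 were above every other sample, and control SHPC 3, the control that shared a set of arrays with the BM-MC samples, was below every other sample. The log2 difference between SHPCs with and without BM-MCs was -0.44 (SE 0.32), but 0.28 within the second set and -0.79 without control SHPC 3. The direction for Ctgf therefore depended on which control samples were used. Its probe was also spotted 10 times, with an SD over spots of 0.065 to 0.22.

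Amotl2, both a target and an inhibitor of Yap1, read 0.44, 0.31 and 0.067 with BM-MCs, 0.090, 0.038 and -0.078 in control SHPCs and 0.16 and -0.14 in MHs. Samples 1 and 2 with BM-MCs were above all other samples and sample 3 lay within the controls. The log2 difference between the SHPC groups was 0.25 (SE 0.13), and it was 0.063 with scaling to the median. Ankrd1 was not well above background except in MH 2, with signals from 6.772 to 22.36 in deposited units, and no comparison was made.

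Set side by side, the 3 comparisons shared samples and are not independent. Between SHPCs with and without BM-MCs, limma called 0 of the 12 probes at an adjusted p under 0.05, where it called 0.0217% of all probes. In 4 of the 12 (both of Vgll4, Tead1 and Cyr61) all BM-MC samples were above all controls, as in 13.1% of all probes, and 0 were below all controls, as in 11.7% of all probes. Of the 9 genes, each by its brightest probe, 6 were higher and 3 lower with BM-MCs, with a median log2 difference of 0.13 beside 0.018 over all probes. Scaling to the median turned the sign for Yap1 and Lats2 and gave 4 higher and 5 lower, with a median of -0.066 beside -0.17 over all probes. Between MHs and control SHPCs 0 of 12 were called, beside 1.13% of all probes. Here 2 probes (Yap1 probe 2 and Lats2) were higher in both MHs than in all controls, beside 22.7% of all probes, and 1 (Vgll4 probe 2) was lower, beside 18.7%. The median log2 difference was 0.0098, beside 0.032 over all probes. For BM-MC samples against MHs 1 of 12 was called (Vgll4 probe 2, log2 difference 1.14, SE 0.11), beside 0.338% of all probes. This call was made by limma in 8 of 20 alternatives and was lost without MH 1, MH 2, control SHPC 1, control SHPC 2 or BM-MC SHPC 2, among others. In that comparison 4 probes (both of Vgll4, Yap1 probe 1 and Cyr61) were higher in all BM-MC samples, beside 16.1%, and 1 (Yap1 probe 2) was lower, beside 16.3%. MHs and BM-MC samples lay in different sets of arrays, so this comparison and position on the slide cannot be told apart. The members were chosen with these contrasts known, and nothing is read from the counts.

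**Figure D2:**
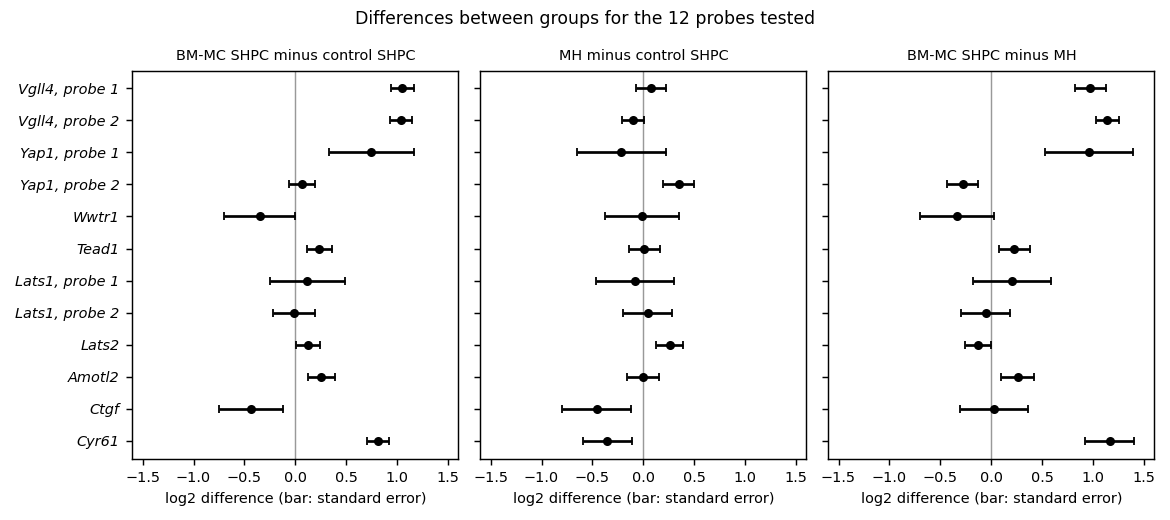
Log2 difference (points) and its standard error from limma (bars) for the 12 tested probes in each of the 3 comparisons, with 0 marked by a grey line. Vgll4 and Cyr61 lie to the right of 0 for SHPCs with BM-MCs against both control SHPCs and MHs, and both Vgll4 probes lie near 0 for MHs against control SHPCs.

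**Figure D3:**
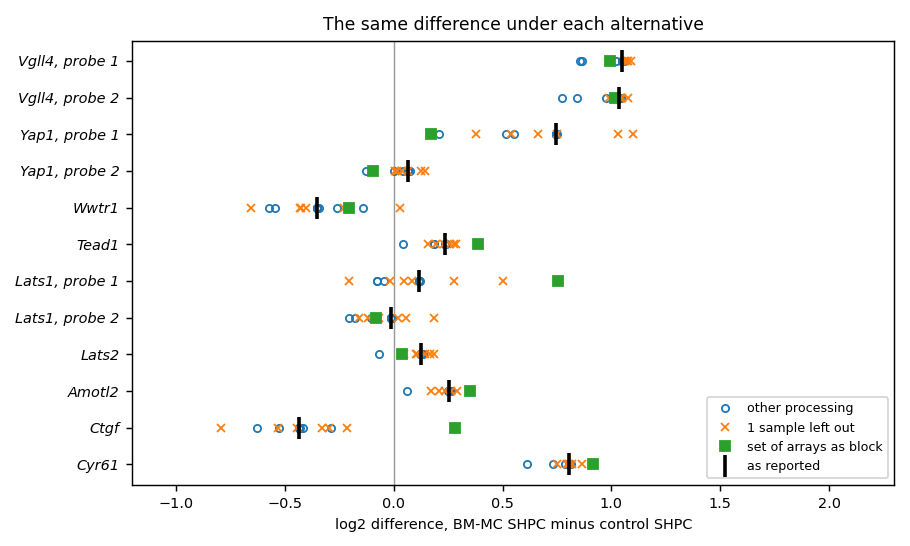
Log2 difference of BM-MC samples from control SHPCs for each tested probe, as reported (black line), with each of the 6 samples left out in turn (orange crosses), with the set of arrays as a block (green squares) and under the other processing alternatives (blue circles). Both Vgll4 probes stay above 0.7 and Cyr61 above 0.6, whereas Ctgf changes sign with the set of arrays as a block.

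The other genes of the pathway were taken from 4 lists with 54 genes in all, of which 44 were tested. None passed the adjusted threshold of 0.05 in any of the 3 comparisons by limma. Between SHPCs with and without BM-MCs 7 of 44 had an unadjusted p under 0.05 by limma, 5 of them higher with BM-MCs, beside 16.6% of all probes. The test named in the study's methods, run on the same values, gave 8 before and 0 after Benjamini-Hochberg adjustment, beside 14.9% and 0 of all probes. Between MHs and control SHPCs the unadjusted count was 10 by limma and 12 by the methods' test, beside 19.2% and 17.5% of all probes, and for BM-MC samples against MHs it was 4 and 3, beside 13.3% and 9.26%. After adjustment the methods' test called 0 in both. The lists held more genes on the higher side with BM-MCs, 30 of 44 with a median log2 difference of 0.12, beside 0.018 over all probes, but 18 of 44 with a median of -0.068, beside -0.17, with scaling to the median.

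Among the core kinases and their activators 15 of 16 genes were tested, and 11 lay higher and 4 lower with BM-MCs than in control SHPCs, or 6 and 9 with scaling to the median. The TAO kinases, which activate the upstream kinases of the pathway, had the largest differences of this list. Taok3 read -0.83, -0.40 and -0.46 with BM-MCs and -1.33, -1.52 and -1.24 in controls, without overlap (log2 difference 0.81, SE 0.16, adjusted p = 0.134 from limma). The MHs were in between, at -0.90 and -1.07. Taok2, a dim probe, lay 0.67 higher without overlap (SE 0.11, adjusted p = 0.124 from limma), but 0.14 higher with normexp and quantile normalization on 7 arrays. Taok1 was 0.70 higher (SE 0.42, adjusted p = 0.428 from limma), a value carried by sample 2 with BM-MCs at -2.09 beside -3.50 and -3.69 in the other two, and it was 0.20 without that sample. The kinases Stk3 and Stk4, which phosphorylate Lats1 and Lats2, lay 0.0066 and 0.46 higher with BM-MCs, the first turning to -0.18 with scaling to the median, and 0.42 and 0.71 higher in MHs than in control SHPCs. For Stk4 the value with BM-MCs was 0.25 without BM-MC sample 2, 0.75 without BM-MC sample 3 and 0.20 under normexp correction followed by quantile normalization of 7 arrays. Under the same correction the value of Stk4 in MHs against control SHPCs was 0.44. Fat1, a giant cadherin upstream of the pathway, was 0.47 higher in MHs than in control SHPCs.

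Among the YAP-binding scaffolds and LATS antagonists 15 of 16 genes were tested, with 8 higher and 7 lower with BM-MCs and a median log2 difference of 0.0083, or 3 and 12 with scaling to the median. The phosphatase Ptpn14, which binds Yap1, had the largest value, 1.05 (SE 0.79, adjusted p = 0.518 from limma), set by control SHPC 1 alone at -6.56 while the other 7 samples lay between -4.05 and -3.36, and the difference was 0.079 without it. Limd1 and Ajuba, LIM proteins that inhibit LATS kinases, differed by -0.32 and 0.31, or by -0.52 and 0.12 with scaling to the median. Ywhaq, a member of the 14-3-3 family whose proteins hold phosphorylated Yap1 in the cytoplasm, differed from control SHPCs by -0.33 in log2 terms with BM-MCs, or -0.52 with scaling to the median, and by -0.35 in MHs. Crb3, an apical polarity protein, differed by -0.44 in MHs.

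Of the TEAD factors and VGLL cofactors Tead2, Tead3 and Tead4 were tested, and Vgll1, Vgll2 and Vgll3 were not tested because of dim signals. Tead3 read -1.32, -1.39 and -1.52 with BM-MCs, -1.95, -1.82 and -1.88 in control SHPCs and -1.66 and -1.57 in MHs. The 3 groups did not overlap, and the log2 difference between the SHPC groups was 0.48 (SE 0.11, adjusted p = 0.163 from limma), or 0.28 with scaling to the median. Tead2 was 0.85 higher with BM-MCs (SE 0.72), but this came from sample 3 alone, at 0.24 while the other 7 samples lay between -2.60 and -2.06, and the difference was -0.045 without it. Tead4 differed by 0.22 between the SHPC groups, a value of -0.011 without BM-MC sample 2 and 0.031 with scaling to the median, and by 0.49 between MHs and control SHPCs.

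Of 17 further target genes of Yap1 and TAZ 12 were tested, and 9 lay higher and 3 lower with BM-MCs, with a median log2 difference of 0.20, or 7 and 5 with scaling to the median. Dock5, an exchange factor for Rac, was 1.01 higher (SE 0.46, adjusted p = 0.330 from limma), and its BM-MC samples were far apart at -2.35, -1.76 and -0.45 against -2.58 to -2.48 in controls. The difference was 0.47 without BM-MC sample 3. The growth factor gene Tgfb2 was 0.85 higher (SE 0.56, adjusted p = 0.470 from limma) with controls spread from -6.34 to -4.0. Its direction depended on the controls, since the difference was -0.48 with the set of arrays as a block and 0.35 without control SHPC 1. Its tested probes disagreed in direction for BM-MC samples against MHs. Crim1, a membrane protein that binds bone morphogenetic proteins, was 0.53 higher in MHs than in control SHPCs (SE 0.17, adjusted p = 0.180 from limma) and 0.22 higher with BM-MCs, or 0.033 with scaling to the median, 0.13 without BM-MC sample 1 and 0.37 without BM-MC sample 3. Foxf2, a forkhead factor, differed by -0.50 between MHs and control SHPCs (SE 0.42), with MH 1 at -4.44 inside the range of the controls, -4.95 to -4.31, and MH 2 at -5.74. The difference was 0.15 without MH 2. Without control SHPC 3, Taok2 and Tgfb2 passed the threshold between SHPCs with and without BM-MCs, with log2 differences of 0.73 (adjusted p = 0.0484 from limma) and 1.51 (adjusted p = 0.0411 from limma), and no other gene of the lists did so with any sample left out. In the fit without control SHPC 3, 2.3% of all tested probes passed it.

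**Figure D4:**
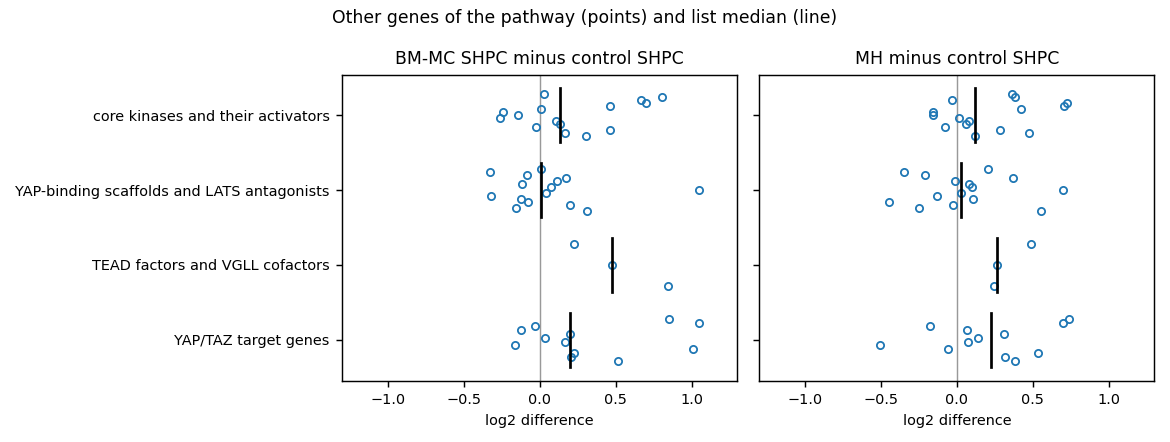
Log2 difference of each tested gene of the 4 pathway lists (points) with the median of each list (black line), for SHPCs with BM-MCs against control SHPCs (left) and MHs against control SHPCs (right). The scaffold list is centred near 0 in both panels, at 0.0083 and 0.028, and none of the genes passed the adjusted threshold.

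Cells captured by LMD can hold neighbouring cell types, and with bulk RNA fewer cells of a type and less RNA per cell cannot be told apart. Proliferation genes moved with the groups. In MHs 6 of 10 (Mki67, Top2a, Cdk1, Ccnb1, Ccna2 and Bub1) fell below control SHPCs at an adjusted p under 0.05 by limma, beside 1.13% of all probes, and the mean of the list, relative to its mean in controls, was -2.73 and -2.44. In the BM-MC samples the list mean was -1.34, -0.80 and -0.53, between the other groups, with 0 of 10 called against control SHPCs by limma, 8 of 10 at an unadjusted p under 0.05 and 7 of 10 by the methods' test, beside 0.0217%, 16.6% and 14.9% of all probes. Granulocyte markers moved with Vgll4 and Cyr61 in the opposite direction: the mean of the 3 tested (S100a8, S100a9 and Retnlg) was -1.57, -1.68 and -1.35 with BM-MCs and between -0.26 and 0.30 in control SHPCs, and it was -1.61 in MH 1 but 0.20 in MH 2. Immediate early genes, which also respond to handling of tissue, had list means of 0.24, 0.63 and 0.52 with BM-MCs, -0.090 to 0.061 in control SHPCs and -0.23 and -0.36 in MHs, while Fos and Fosb were too dim to test. The part of these lists in the values of Vgll4 and Cyr61 was not tested.

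The mean levels of the marker lists of other liver cells overlapped between the SHPC groups. These list means, relative to the control mean, lay from -0.58 to 0.12 with BM-MCs for 4 cholangiocyte markers, from -0.080 to 0.40 for 8 stellate cell and fibroblast markers, from 0.038 to 0.26 for 5 endothelial markers and from -0.070 to 0.41 for 6 macrophage markers. In controls the corresponding ranges were -0.035 to 0.029, -0.11 to 0.093, -0.075 to 0.14 and -0.33 to 0.16. In MHs the means were -1.29 and -0.73, -0.27 and 0.070, 0.24 and 0.16, and 0.51 and 0.59. They lay below all controls for the cholangiocyte list and above them for the endothelial and macrophage lists. Between MHs and control SHPCs limma called 0 of these genes, beside 1.13% of all probes. An unadjusted p under 0.05 was found for 2, 5, 1 and 5 by limma and 0, 4, 0 and 1 by the methods' test, beside 19.2% and 17.5%. Of these lists 0 genes were called between the SHPC groups by limma, and 1, 1, 2 and 1 had an unadjusted p under 0.05, with 0, 1, 1 and 0 by the methods' test, or 5 and 2 of 23 beside 16.6% and 14.9% of all probes. All BM-MC samples lay above all controls for Des, Pdgfrb, Kdr, Stab2 and Cd163 (log2 differences of 0.29, 0.24, 0.32, 0.37 and 0.55) and below them for Epcam (-0.43), or for 5 and 1 of 23 markers beside 13.1% and 11.7% of all probes. Krt7 and Spp1 were too dim to test. The part of these cells in the values of the pathway was not tested.

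**Figure D5:**
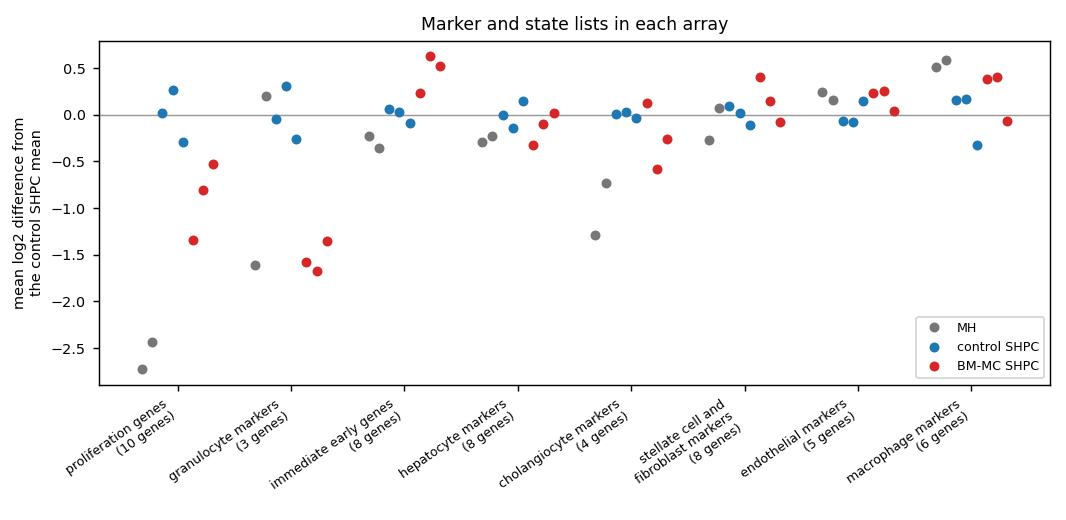
Mean log2 difference from the control SHPC mean over the tested genes of each marker or state list, for each of the 8 samples (MHs grey, control SHPCs blue, SHPCs with BM-MCs red). Proliferation genes are lowest in MHs, at -2.73 and -2.44, and granulocyte markers are low in all 3 BM-MC samples and in MH 1.

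The genes whose pattern was most like that of Vgll4 were sought among 14420 named genes over the 8 arrays, by Pearson r with probe 1. They were Onecut1, a liver transcription factor (r = 0.978), Slc52a3, a riboflavin transporter (0.973), Adam12, a metalloproteinase (0.967), Or10ag59 (0.964) and LOC103693962 (0.961). Onecut1 averaged 2.14 ± 0.17 (SD, n = 3) with BM-MCs, -0.15 ± 0.056 (SD, n = 3) in control SHPCs and 0.35 ± 0.26 (SD, n = 2) in MHs. Adam12 had the same order in smaller steps, at -2.10, -2.48 and -2.40 in these groups. Slc52a3 was also highest with BM-MCs, at -2.84, with control SHPCs at -3.19 and MHs at -3.22. Or10ag59 was well above background on 3 of 7 arrays only. For Ctgf the most similar genes were Slfn4, a gene of myeloid cells (r = 0.980), Cse1l, a nuclear export factor (0.926), LOC103690569 (0.926), Sema4d, a semaphorin (0.916), and Dusp19, a phosphatase (0.915). Within the pathway, Vgll4 probe 1 correlated at 0.890 with Cyr61 and at 0.766 with Amotl2, and Amotl2 and Cyr61 at 0.797 with each other. Ctgf correlated at -0.31 with Vgll4 probe 1, at -0.0011 with Cyr61 and at 0.089 with Amotl2. Probes 1 and 2 of Yap1 stood at 0.634 and -0.0755 with Vgll4 probe 1. All these values share the same 8 arrays, 3 groups and scaling, and the genes named first are the highest of a search, so the values describe likeness on these arrays only.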

How the data were processed

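Cells were cut by LMD and their RNA was labelled with Cy3 and hybridised to Agilent rat arrays (Feature Extraction 10.7 per the labels). The values deposited by the authors are processed intensity on a linear scale, with background subtracted by the scanner software and arrays not scaled to each other. A value table held the same signals and supplied those of control SHPC 2, whose scanner file stops after 20903 of 62976 features, and its incomplete background marks were not used. Signals were set on the log2 scale minus each array's 75th percentile, outlier spots were left out and spots of 1 probe averaged. No spot was marked as saturated. Probes marked well above background 3 times or more among the 7 complete arrays were fitted in limma 3.58.1 (R 4.3.3) with Benjamini-Hochberg adjustment at 0.05. The 6 SHPC samples alone were fitted for BM-MC SHPCs against control SHPCs, and all 8 for contrasts with MHs. The fit was tested on simulated data. Scaling, background, filter, test, block and left-out samples were varied. The 10 genes and the lists were chosen with earlier results of these data known. All 10 genes are described by every probe, and genes of the pathway lists were named if past the threshold or among the 3 of their list with the largest difference in a contrast, by their brightest tested probe. Probe coordinates are those of the array annotation (rn4), and promoters are from RefSeq (GRCr8).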

Additional observations from a re-analysis of the deposited data

How the results depend on the processing

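Counts of probes called by limma depended on the processing and on single samples, and the cause was not tested. Between SHPCs with and without BM-MCs the count of 5 became 214 without scaling, 0 without a filter on dim probes, 3 with probes above background on every complete array, 3 with a floor for dim spots, 1 with normexp and quantile normalization on 7 arrays, 22 with all 8 samples in the fit, 32 with an intensity trend, and 0 after and 3447 before adjustment by the t-test. The 5 calls were all higher with BM-MCs. With the set of arrays as a block, where the difference rests on control SHPC 3 alone, calls were made in both directions. Leaving out 1 sample gave 0 to 530, with 530 without control SHPC 3, 19 without BM-MC SHPC 3 and 0 without any of the other 4. For MHs against control SHPCs the count of 261 became 136 without the filter, 110 with normexp, 557 with the trend, and 0 after and 4030 before adjustment by the t-test, and leaving out 1 sample gave 55 (MH 1) to 523 (BM-MC SHPC 3), through 130 (MH 2), 102 and 97 (control SHPCs 1 and 2) and 157 (BM-MC SHPC 2). For SHPCs with BM-MCs against MHs the count of 78 became 50 with scaling to the median, 1 without the filter, 3 with normexp, 3 with the set of arrays as a block, 0 with only the 2 groups in the fit, 132 with the trend, and 0 after and 2136 before adjustment by the t-test, and leaving out 1 sample gave 0 (control SHPC 1 or 2, or BM-MC SHPC 2) to 117, through 2 and 6 (MHs 1 and 2). The count of 0 pathway genes became 8, 12 and 3 in the 3 comparisons with the unadjusted t-test, and leaving out 1 sample gave 0 to 2 between the SHPC groups and 0 to 0 in the other comparisons.

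For the 12 tested probes, which cover 9 of the genes, 224 of 238 values between the SHPC groups moved by less than 1 SD. The counts were 253 of 262 for MHs against control SHPCs and 240 of 262 for SHPCs with BM-MCs against MHs. A change of filter, test or trend alone leaves the log2 difference of a probe as it was. These counts therefore include values that could not move, and no stability is read from them. Between SHPCs with and without BM-MCs, limma called 0 of the 12 probes in the main fit. Over 18 limma alternatives it called Vgll4 probe 1 in 2, Vgll4 probe 2 in 3 and Cyr61 in 2. Both Vgll4 probes and Cyr61 were called with an intensity trend, beside 32 of the 23065 tested probes. They were also called without control SHPC 3, beside 530 of all tested probes. With all 8 samples in the fit Vgll4 probe 2 was called, beside 22 of all tested probes. The genes were chosen with earlier results known, and nothing is read from these calls.

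The samples share replicate numbers across groups, and the deviations of same-numbered control and BM-MC samples correlated at 0.13, 0.078 and 0.17 across probes. For controls 1 and 3 the same-numbered BM-MC sample was the best match. Control SHPC 2 correlated at 0.082 with BM-MC SHPC 1, close to its 0.078 with BM-MC SHPC 2. These values do not settle whether the numbers pair the samples, and the main fit took no pairing. With the replicate block the counts of calls were 0, 161 and 0 in the 3 comparisons, and 0 pathway genes were called in each.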
